A study of Mus musculus with 15 samples.

Results

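The NOD-like receptors Nod1, Nod2 and Nlrp3, the NOD adaptor kinase Ripk2, and the inflammasome genes Pycard, Casp1 and Casp4 were followed in D1 cells, a long-term dendritic cell (DC) line from the spleen of C57BL/6 mice. The 7 genes were chosen by symbol, with earlier results of these data known. For each one the probe set carrying only that symbol was read. Of the 7 genes, 6 were measured, by 1 probe set each, among 19937 genes tested. No probe set was named for Ripk2 alone, so it is not analysed here. The arrays form 5 groups of 3: D1 cells given curdlan (10 µg/ml) with FK506 for 2 h, curdlan alone for 2 h, curdlan with FK506 for 4 h, curdlan alone for 4 h, and nontreated cells. Curdlan is a polymer of beta-linked glucose recognised by dectin-1, a lectin receptor of DCs, and FK506 blocks calcineurin, the phosphatase that lets NFAT transcription factors enter the nucleus. All groups share the same cell line and strain, so every value describes 1 line and not DCs of several animals. The same 3 nontreated arrays serve both times, and FK506 without curdlan is not analysed here. The labels call the 3 arrays of a group biological replicates and say nothing of separate cultures, so p values measure the spread between these arrays, which may be partly technical.

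NOD1 and NOD2 are cytosolic sensors of fragments of bacterial peptidoglycan. They signal through the kinase RIPK2 to NF-kappaB and MAP kinases. NLRP3 senses cell damage and ion fluxes, and assembles with the adaptor ASC, the product of Pycard, to activate caspase-1, which cleaves pro-interleukin-1 beta, pro-interleukin-18 and the pore protein gasdermin D. The product of mouse Casp4, also called caspase-11, binds cytosolic lipopolysaccharide and cleaves gasdermin D directly, the noncanonical route. In DCs and macrophages the transcripts of Nlrp3 and of interleukin-1 beta are known to rise on priming, before any inflammasome is assembled. The arrays measured transcripts only.

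Promoter sequence is shown for Casp4, Nod2 and Nlrp3, chosen by the size of their differences at 2 h. Of the 6 genes, Casp4 and Nlrp3 held the largest with curdlan at 2 h. Casp4 and Nod2 held the largest between curdlan with FK506 and curdlan at 2 h. The sequences are the 250 bases before the annotated start in RefSeq (build GRCm38.p6, plus strand), 5′ to 3′. Of the 7 genes, 6 matched a promoter entry, with 9 annotated starts in all. Capitals mark matches to the NFAT core GGAAAA on either strand (TTTTCC on the other strand) or to the kappaB consensus. The Casp4 stretch lies at chr9:5308599-5308848, that of Nod2 at chr8:88647097-88647346, and that of Nlrp3, for the first of its listed starts, at chr11:59541319-59541568.
Casp4: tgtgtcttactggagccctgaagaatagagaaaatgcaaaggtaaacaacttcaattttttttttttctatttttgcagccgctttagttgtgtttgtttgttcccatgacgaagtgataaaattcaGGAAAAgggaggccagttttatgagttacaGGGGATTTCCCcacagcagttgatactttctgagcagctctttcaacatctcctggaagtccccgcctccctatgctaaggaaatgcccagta
Nod2: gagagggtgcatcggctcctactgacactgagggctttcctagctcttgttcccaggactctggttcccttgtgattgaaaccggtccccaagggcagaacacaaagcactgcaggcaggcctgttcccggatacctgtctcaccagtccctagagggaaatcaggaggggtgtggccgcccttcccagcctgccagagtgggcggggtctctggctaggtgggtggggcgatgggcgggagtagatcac
Nlrp3: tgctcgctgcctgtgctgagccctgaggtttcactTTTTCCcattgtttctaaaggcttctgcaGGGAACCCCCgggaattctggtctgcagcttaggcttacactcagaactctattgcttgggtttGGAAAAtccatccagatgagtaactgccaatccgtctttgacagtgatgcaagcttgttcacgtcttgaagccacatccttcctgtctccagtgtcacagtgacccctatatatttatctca

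The Casp4 stretch held an NFAT core at −123 to −118 from the start and, close downstream, 2 overlapping kappaB matches at −93 to −84 and −92 to −83. The Nlrp3 stretch held NFAT cores at −215 to −210 and −122 to −117 and a kappaB match at −186 to −177. The Nod2 stretch held neither motif. Over windows that also include 50 bases after the start, the second start of Nod1 held 1 NFAT core, and no match was found for Pycard, Casp1, the first start of Nod1 or the second start of Nlrp3. The second start of Casp4 lies so close to the first that its window held the same matches. Among all 32851 promoter windows of this length, 23.4% held an NFAT core and 4.51% a kappaB match. The interferon-response core, GAAA and GAAA with any 2 bases between them on either strand, was found in 3.44% of all windows and in 0 of the 9. A match is a run of letters and not a shown binding site, and a missing match says only that these letters are not in the window.

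**Figure D1:**
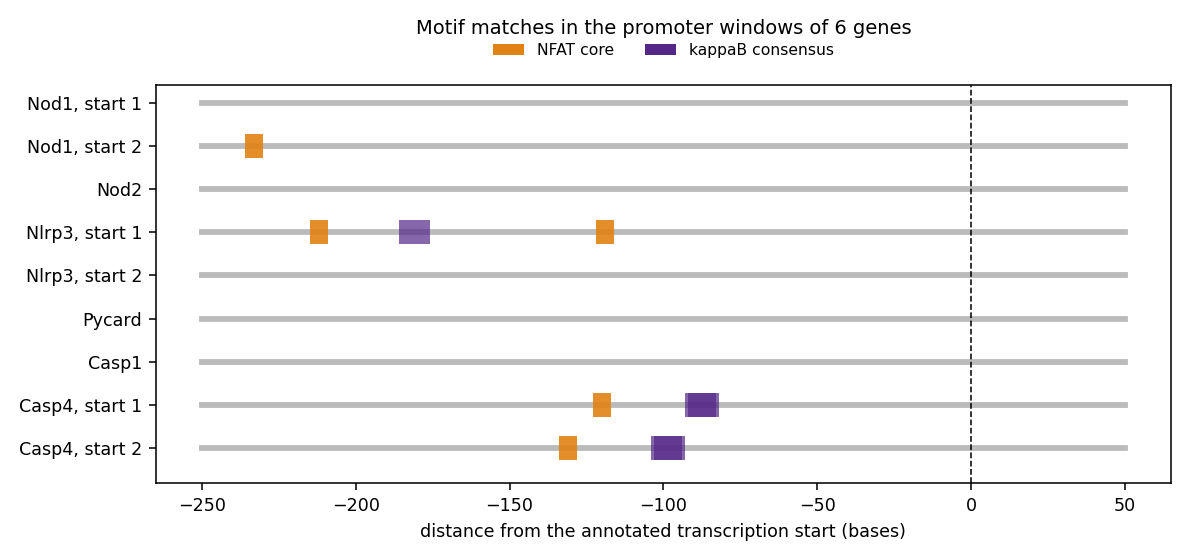
Matches to the NFAT core (orange) and the kappaB consensus (purple) in the 9 promoter windows of 6 genes, by distance from the annotated transcription start in bases (horizontal axis, 0 is the start). Matches lie in the windows of Casp4, of the first Nlrp3 start and of the second Nod1 start, and the Nod2, Pycard and Casp1 windows are empty.

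All values are log2 RMA levels as the authors deposited them. A gene was called when its adjusted p in limma (Benjamini-Hochberg over the 19937 genes) was under 0.05 and its fold change at least 1.5. Array medians over all probe sets lay between 6.45 and 6.57, and 0 pairs of arrays were identical. Over the tested genes they ran from 6.67 to 6.94, highest on nontreated replicate 1 (6.94) and curdlan 2 h replicate 3 (6.88). An array of the nontreated group (replicate 1) and one of the curdlan 2 h group (replicate 3) stood apart, with array weights of 0.0781 and 0.119, against 0.707 to 6.87 for the other 13 arrays. Both were kept, and values without them are given for Casp4, Nlrp3, Casp1 and the list gene Erbin. The median gene had a mean level of 6.76, and 8 of 9 DC markers lay above it. Flt3, the receptor for a DC growth factor, was the exception, with 5.65 to 5.99 over the arrays. Of 7 macrophage markers 6 also lay above that median, Adgre1 (the F4/80 antigen) at 11.54 to 11.75 among them. So did 3 of 5 fibroblast markers, Col1a1 (mean 7.33), Col3a1 (7.11) and Col1a2 (6.85). Above it lay 0 of 9 neutrophil, 0 of 5 T cell, 0 of 4 B cell and 0 of 4 NK cell markers. In RNA from a culture, fewer expressing cells and less RNA per cell cannot be told apart.

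Casp4, the lipopolysaccharide-sensing caspase of the noncanonical inflammasome, changed most of the 6 genes. It rose 8.29-fold after 4 h of curdlan, and FK506 lowered it at both times. Curdlan cells had log2 levels of 8.64, 8.69 and 8.25 at 2 h and 9.68, 9.75 and 9.70 at 4 h, against 6.41, 6.75 and 6.82 in nontreated cells. The lowest nontreated and the lowest 2 h values come from the arrays that stood apart, and every curdlan array lay above every nontreated array. The log2 difference between curdlan and nontreated cells was 1.87 at 2 h (SE 0.11, limma adjusted p = 3.36e-08) and 3.05 at 4 h (SE 0.11, adjusted p = 9.17e-11), ranked 83 and 41 by size among all genes. Curdlan cells at 4 h exceeded those at 2 h by 1.18 (adjusted p = 2.96e-06).

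With FK506 added, Casp4 stood at 7.85, 7.76 and 7.86 at 2 h and at 8.45, 8.41 and 8.49 at 4 h. All 3 arrays with FK506 lay below all 3 curdlan arrays of the same time and above all 3 nontreated arrays. The difference between curdlan with FK506 and curdlan was −0.70 at 2 h (SE 0.11, limma adjusted p = 0.00108) and −1.26 at 4 h (SE 0.11, adjusted p = 4.15e-06). Without the pair of arrays that stood apart the differences were −0.84 and −1.26. Of the 7 macrophage markers, 4 had lower means with curdlan and FK506 than with curdlan at 2 h and 3 at 4 h, and the others had higher means. The difference of the list mean (−0.17 at 2 h and −0.20 at 4 h) came to 0.06 and 0.13 without Mertk, a receptor for apoptotic cells (−1.53 and −2.20). The part of these markers in the Casp4 difference was not tested. Cells given curdlan with FK506 remained above nontreated cells by 1.17 at 2 h and 1.79 at 4 h, both called. They also gained 0.63 between 2 h and 4 h (adjusted p = 0.00145). The FK506 effect at 4 h minus that at 2 h was −0.56 (SE 0.16, adjusted p = 0.0722), which did not pass. Leaving out 1 of the 15 arrays, curdlan 2 h replicate 2, gave −0.64 with an adjusted p of 0.0467. Without the pair of arrays that stood apart it was −0.42 (adjusted p = 7.97e-04), under the fold threshold. The levels ran, low to high, nontreated, curdlan with FK506 at 2 h, curdlan with FK506 at 4 h, curdlan at 2 h, curdlan at 4 h. Of these neighbours, curdlan with FK506 at 4 h and curdlan at 2 h overlapped and differed by 0.08. The overlap rested on curdlan 2 h replicate 3 (8.25), an array that stood apart.

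Nod2, the muramyl dipeptide sensor, went the other way with FK506. It was 2.01-fold higher in cells given curdlan with FK506 than in cells given curdlan alone at 2 h. The log2 levels were 8.64, 8.64 and 8.61 with curdlan and FK506 at 2 h, against 7.62, 7.72 and 7.52 with curdlan at 2 h. At 4 h they were 8.65, 8.64 and 8.60 with curdlan and FK506, against 8.39, 8.44 and 8.38 with curdlan. Nontreated cells stood at 7.45, 7.46 and 7.47. No groups overlapped except the pair with FK506 at 2 h and 4 h, whose means (8.63 ± 0.027 at 4 h and 8.63 ± 0.021 at 2 h, SD, n = 3 each) were the same to 2 decimals.

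The Nod2 difference between curdlan with FK506 and curdlan was 1.01 at 2 h (SE 0.047, limma adjusted p = 1.33e-08), ranked 67 by size, and 0.22 at 4 h (adjusted p = 0.00584), under the fold threshold. The FK506 effect at 4 h minus that at 2 h was −0.78 (SE 0.067, adjusted p = 2.05e-05), so the effect was smaller at 4 h. Curdlan alone gave 0.16 over nontreated cells at 2 h (adjusted p = 0.0239, under the fold threshold) and 0.95 at 4 h (adjusted p = 1.9e-09), and its 4 h level exceeded its 2 h level by 0.78 (adjusted p = 4.44e-08). Curdlan with FK506 gave 1.17 over nontreated cells at 2 h (adjusted p = 7.48e-10) and 1.17 at 4 h (adjusted p = 4.53e-10).

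Nod1, the sensor of peptidoglycan with diaminopimelic acid, was not called in any comparison. Its log2 levels were 6.46, 6.55 and 6.55 with curdlan and FK506 at 2 h, 6.47, 6.36 and 6.61 with curdlan at 2 h, 6.34, 6.60 and 6.59 with curdlan and FK506 at 4 h, 6.55, 6.54 and 6.58 with curdlan at 4 h, and 6.70, 6.55 and 6.51 in nontreated cells. All groups overlapped with their neighbours in the order of levels. The difference between curdlan and nontreated cells had a 95% interval of −0.28 to 0.07 at 2 h and −0.20 to 0.14 at 4 h. Between curdlan with FK506 and curdlan it was −0.13 to 0.21 at 2 h and −0.22 to 0.12 at 4 h, all inside the fold threshold of 0.585 on the log2 scale.

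Nlrp3, the sensor of the canonical inflammasome, rose with curdlan at 2 h and stayed raised at 4 h. Its levels were 11.25, 11.26 and 11.17 with curdlan at 2 h and 11.03, 11.07 and 11.07 at 4 h, against 10.13, 10.37 and 10.44 in nontreated cells. All curdlan arrays lay above all nontreated arrays. The difference from nontreated cells was 0.91 at 2 h (SE 0.068, limma adjusted p = 2.98e-07) and 0.74 at 4 h (SE 0.068, adjusted p = 8.9e-07), or 0.85 and 0.65 without the pair of arrays that stood apart. Adding the median of the unnamed probe sets as a covariate took the 4 h difference to 0.53, under the fold threshold. That median was 6.15 to 6.2 on the curdlan 4 h arrays and 5.87 to 6.02 on the nontreated arrays. It followed the treatment, so no 4 h value with the covariate against nontreated cells can separate it from the treatment.

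With curdlan and FK506, Nlrp3 stood at 11.41, 11.30 and 11.44 at 2 h and 11.03, 11.00 and 11.05 at 4 h. The 2 h arrays lay just above those with curdlan alone, and the 4 h arrays overlapped with theirs. The difference from curdlan alone was 0.16 at 2 h (adjusted p = 0.227, 95% interval 0.01 to 0.30) and −0.03 at 4 h (adjusted p = 0.901, 95% interval −0.17 to 0.12), so an FK506 effect of 1.5-fold lay outside both intervals. Against nontreated cells, Nlrp3 was higher with curdlan and FK506 by 1.07 at 2 h and 0.72 at 4 h, both called. The 4 h level was below the 2 h level by 0.35 with FK506 (log2 difference −0.35, adjusted p = 0.00254) and by 0.17 without it (−0.17, adjusted p = 0.0875), and neither passed.

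Pycard, the gene of the adaptor ASC that joins sensors to caspase-1, fell 1.91-fold with curdlan at 4 h. Its levels were 9.97, 10.09 and 9.98 with curdlan at 2 h and 9.36, 9.47 and 9.45 at 4 h, against 10.23, 10.41 and 10.45 in nontreated cells. The groups were ordered without overlap, nontreated highest and curdlan at 4 h lowest. The difference from nontreated cells was −0.35 at 2 h (SE 0.06, limma adjusted p = 6.78e-04, under the fold threshold) and −0.94 at 4 h (SE 0.06, adjusted p = 2.28e-08). Between curdlan at 4 h and curdlan at 2 h it was −0.59 (adjusted p = 5.56e-06), close to the threshold, and −0.55 without curdlan 2 h replicate 2 and also without curdlan 4 h replicate 1, where it was not called.

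Pycard levels with curdlan and FK506 were 10.03, 10.05 and 9.97 at 2 h and 9.79, 9.76 and 9.72 at 4 h. The 2 h arrays overlapped with those of curdlan alone, and the 4 h arrays all lay above theirs and below those of nontreated cells. The FK506 difference was 0.00 at 2 h (95% interval −0.13 to 0.13) and 0.33 at 4 h (SE 0.06, limma adjusted p = 0.00193), under the fold threshold. The FK506 effect at 4 h minus that at 2 h was 0.33 (adjusted p = 0.0439), also under it. Against nontreated cells the 4 h difference with FK506 was −0.60 (adjusted p = 3.11e-06). It was −0.58 without nontreated replicate 2 and −0.56 without nontreated replicate 3, where it was no longer called.

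Casp1, which cleaves pro-interleukin-1 beta, was called in no comparison, and its widest spread lay in the groups that hold the arrays standing apart. Its levels were 9.0, 8.93 and 8.98 with curdlan and FK506 at 2 h, 9.0, 8.96 and 8.26 with curdlan at 2 h, 8.94, 9.08 and 8.99 with curdlan and FK506 at 4 h, 9.15, 9.10 and 9.19 with curdlan at 4 h, and 7.99, 8.99 and 9.0 in nontreated cells. Curdlan 2 h replicate 3 (8.26) and nontreated replicate 1 (7.99) were low, and the other 13 arrays lay close together. The difference between curdlan at 4 h and nontreated cells was 0.49 (SE 0.23, limma adjusted p = 0.111), and 0.15 (SE 0.046, adjusted p = 0.0173, under the fold threshold) without both of them. Without nontreated replicate 3 it was 0.66 (adjusted p = 0.0474) and was called. With the covariate it was −0.53, not called.

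**Figure D2:**
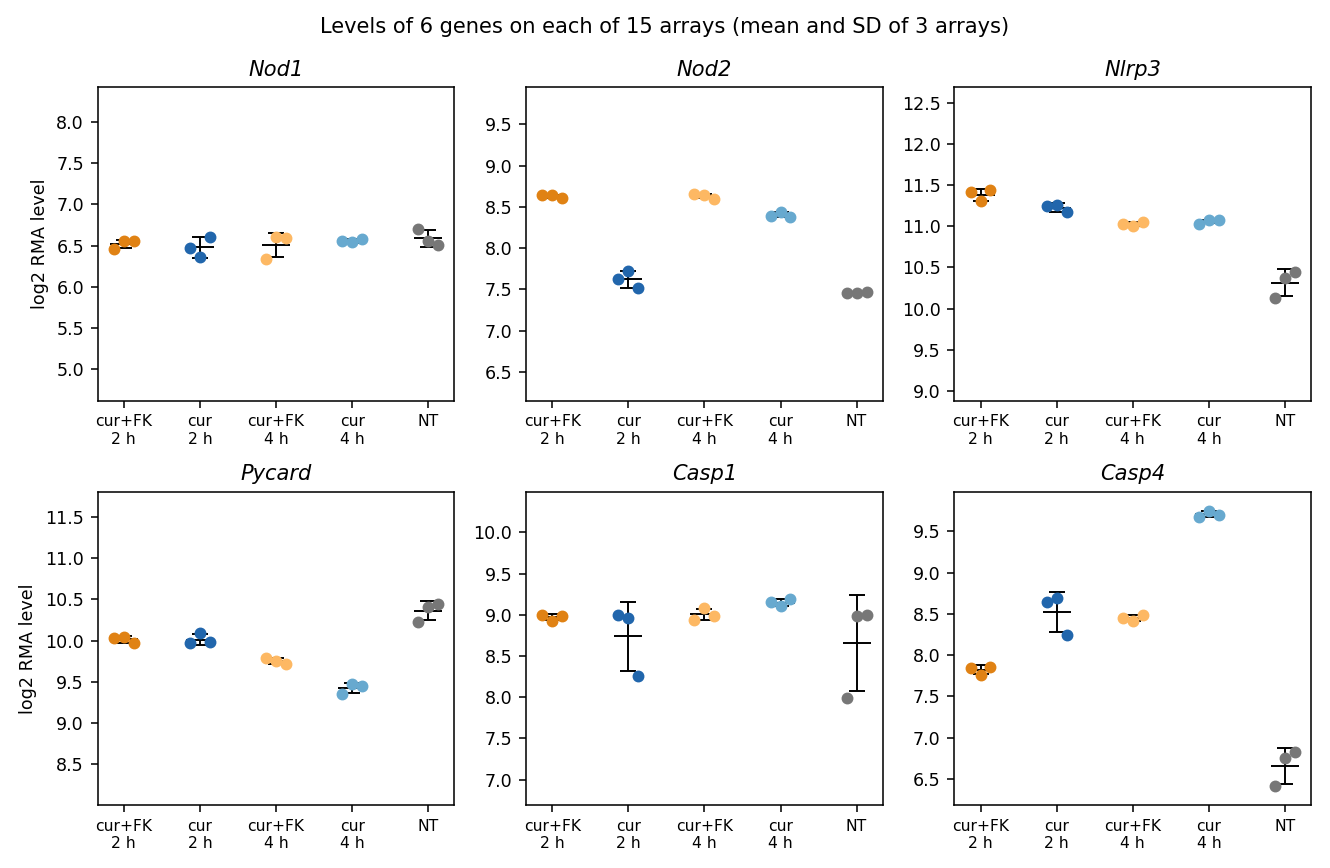
Log2 RMA level (vertical axis, same span in each panel) of 6 genes on 15 arrays, as points by group (cur: curdlan; FK: FK506; NT: nontreated), with the mean and SD of 3 arrays. Casp4 is highest with curdlan at 4 h, Nod2 is near 8.63 in both groups with FK506, and Casp1 has 1 low array in the curdlan 2 h group and 1 in the nontreated group.

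Counted together, 2 of the 6 genes were called with curdlan at 2 h, both higher (Nlrp3 and Casp4), where 3.6% of all genes were called, 2.2% higher and 1.4% lower. At 4 h 4 were called, with Nod2, Nlrp3 and Casp4 higher and Pycard lower (9.2% of all genes, 5.05% higher and 4.15% lower). Their median log2 difference was 0.12 at 2 h and 0.62 at 4 h, beside −0.04 and −0.12 over all genes. As the genes were chosen with earlier results known, these counts are a description and not a test of enrichment. Between curdlan with FK506 and curdlan, 2 were called at 2 h, Nod2 higher and Casp4 lower (1.12% of all genes, 0.361% higher and 0.762% lower), and 1 at 4 h, Casp4 lower (1.75%, 0.211% higher and 1.53% lower). Centring each array on its median gave a share of higher genes among those called of 70.5% for curdlan at 4 h against nontreated cells, and the covariate gave 38.7%, beside 54.9% as deposited. For curdlan with FK506 against curdlan at 2 h centring gave 44.4%, beside 32.1%. The member medians for the FK506 comparisons were 0.10 at 2 h and −0.04 at 4 h, beside −0.03 and 0.03. Between curdlan with FK506 and nontreated cells, 3 were called at 2 h (2.35% of all genes) and 4 at 4 h (5.38%). Between curdlan at 4 h and at 2 h 3 were called (4.09%), between the times with FK506 1 was (1.69%), and the FK506 effect differed between the times for 1, Nod2 (1.23%).

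**Figure D3:**
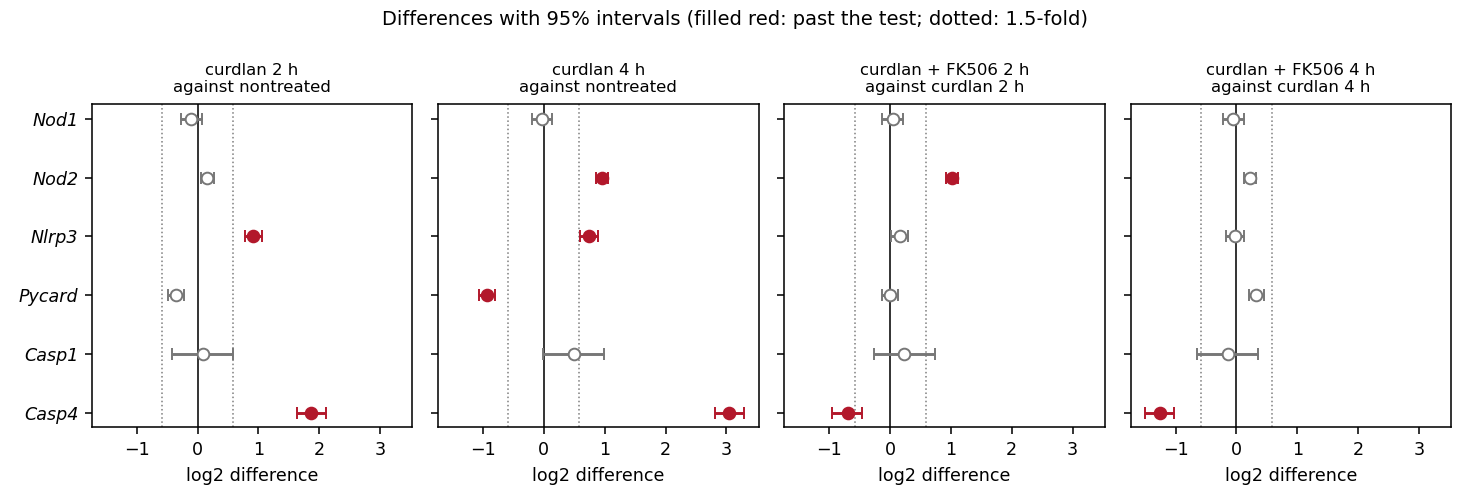
Log2 difference with its 95% interval (horizontal axis) of 6 genes in 4 comparisons, the first-named group minus the second, with filled red points for those called and dotted lines at 1.5-fold. Casp4 lies to the right in both curdlan panels and to the left in both FK506 panels, and Nod2 lies to the right of the threshold with FK506 at 2 h and inside it at 4 h.

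The other genes of these pathways were read from 4 lists of 59 genes, 54 of them measured. With curdlan at 2 h 6 of the 54 were called higher and 5 lower (2.2% and 1.4% of all genes), and at 4 h 11 and 5 (5.05% and 4.15%). Between curdlan with FK506 and curdlan, 0 were higher and 1 lower at 2 h (0.361% and 0.762% of all genes), and 0 higher and 6 lower at 4 h (0.211% and 1.53%).

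Of 13 other NOD-like receptors measured, 1 was called lower with curdlan at 2 h and 1 at 4 h, and 0 were called higher (12 uncalled each time, list medians −0.35 and −0.21), where 3.6% and 9.2% of all genes were called. At 2 h it was Ciita, the transactivator of MHC class II genes (−0.66, adjusted p = 4.86e-08), with 10.57 to 10.66 in curdlan cells and 11.22 to 11.33 in nontreated cells. By 4 h Ciita had 11.23 to 11.27, a difference of −0.02 from nontreated cells, and its gain from 2 h was called (0.64). At 4 h it was Nlrp1b (−0.64, adjusted p = 1.48e-06), which was not called when arrays were centred on their median (−0.53) or normalized again (−0.54). With FK506 added to curdlan, limma called 0 of the 13 at 2 h and 0 at 4 h (1.12% and 1.75% of all genes). Of the 13, 8 and 5 had an unadjusted p under 0.05. Some of the 13 passed it and missed only the fold threshold, all higher with FK506. They were Ciita (0.51), Nlrp1b (0.47), Nlrp1a (0.36) and Nlrp10 (0.34) at 2 h. At 4 h they were Nlrp1b (0.36), Nlrp10 (0.36) and Ciita (0.17). Nlrc4, the partner of the NAIP flagellin sensors, averaged 4.67 in nontreated cells, under the lower quartile of gene means (5.28). With curdlan it was lower by a log2 difference of −0.24 at 2 h (limma adjusted p = 0.0165) and −0.34 at 4 h (adjusted p = 8.67e-04). Both were under the fold threshold, at a level where part of a change may not be seen.

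Of 17 partners of NOD1 and NOD2 signalling, 2 passed as higher at 2 h of curdlan and 0 as lower, and 4 higher and 1 lower at 4 h, with list medians of 0.06 and 0.31. Of all genes 2.2% were higher and 1.4% lower at 2 h, and 5.05% and 4.15% at 4 h. Tnfaip3, which encodes the ubiquitin-editing brake A20, exceeded its nontreated level by 2.83 at 2 h and 2.99 at 4 h, with 10.81 to 10.88 at 2 h and 10.99 to 11.03 at 4 h, against 7.84 to 8.12 in nontreated cells. Birc3, a ubiquitin ligase of the same signalling complex, was higher by 0.66 and 0.86. Its relative Birc2 was called at 4 h alone (0.84, adjusted p = 3.4e-04), and not when the probe sets of a gene were averaged (0.55) or with the covariate (0.24). Erbin, a scaffold protein that binds NOD2, was just past the threshold at 4 h (0.60) and was not called without nontreated replicate 1 (0.49), without both arrays that stood apart (0.49), with array weights (0.50), after repeated normalization (0.53) or with the covariate (0.31). Card9, the adaptor of dectin-1 as well as of NOD2, fell by 0.77 at 4 h (adjusted p = 5.79e-09), with 9.71 to 9.81 in curdlan cells and 10.52 to 10.56 in nontreated cells. Between curdlan with FK506 and curdlan, limma called 0 of the 17 at 2 h and 0 at 4 h (1.12% and 1.75% of all genes). With no fold threshold, 1509 and 2327 of all genes passed at 2 h and 4 h. Some of the 17 missed only that threshold. Among them were Tab1 at 2 h (0.34, adjusted p = 0.00357) and Birc2 at 4 h (−0.53, adjusted p = 0.0292). Card9, also uncalled, held 10.16 to 10.25 with curdlan and FK506 at 4 h, above its 9.71 to 9.81 with curdlan alone. The FK506 effect at 4 h minus that at 2 h was called for Birc2 (−0.90, adjusted p = 0.0233). With arrays centred (adjusted p = 0.0522) or the covariate (−0.47) it was not.

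Of 17 inflammasome partners and regulators, 0 were called higher and 4 lower at 2 h, and 3 higher and 3 lower at 4 h (list medians −0.15 and −0.31). The shares of all genes were 2.2% higher and 1.4% lower at 2 h, and 5.05% and 4.15% at 4 h. Gbp5, an interferon-inducible GTPase known to promote NLRP3 assembly, was lower at 2 h (−0.70, adjusted p = 1.93e-04) and higher at 4 h (1.77, adjusted p = 9.83e-09). Its arrays held 6.64 to 6.89 at 2 h and 9.23 to 9.32 at 4 h, against 7.26 to 7.61 in nontreated cells. Irgm1, another interferon-inducible GTPase, was not called at 2 h (0.02) and was higher at 4 h (1.47, adjusted p = 5.52e-07). Gsdme, a gasdermin cut by caspase-3, was lower by a log2 difference of −0.75 at 2 h and −1.42 at 4 h, although its mean over probe sets was not called at 2 h (−0.50). Panx1, a channel for ATP release, was lower by −0.65 at 2 h and −1.17 at 4 h. P2rx7, the ATP-gated channel that triggers NLRP3, was lower at 2 h (−0.62), but not called when arrays were centred (−0.58). Gsdmd, the pore protein that caspase-1 and caspase-11 cleave, was at −0.16 and −0.48 and was not called.

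With FK506 and curdlan at 4 h, Gbp5 held 8.28 to 8.56, against 9.23 to 9.32 with curdlan alone (−0.83, adjusted p = 9.23e-05). Irgm1 held 8.75 to 9.04, against 10.09 to 10.22 (−1.29, adjusted p = 1.21e-05). At 2 h neither was called (Gbp5 0.27 and Irgm1 −0.03), and the FK506 effect at 4 h minus that at 2 h passed for Gbp5 (−1.10, adjusted p = 6.17e-04) and Irgm1 (−1.26, adjusted p = 0.00113). Gbp5 and Irgm1 were the 2 of 17 called between curdlan with FK506 and curdlan at 4 h (1.75% of all genes). At 2 h limma called 0 of the 17 (1.12% of all genes), which does not exclude differences under the fold threshold.

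The interleukin-1 list holds the caspase-1 substrates Il1b and Il18, their relative Il1a, the antagonists and decoys Il1rn, Il18bp and Il1r2, and the receptor subunit Il1rap. Curdlan raised 4 of these 7 genes at 2 h and 4 at 4 h (2.2% and 5.05% of all genes), and lowered 0. Il1a, which encodes interleukin-1 alpha, averaged 11.69 ± 0.13 with curdlan at 2 h and 12.56 ± 0.025 at 4 h, against 5.29 ± 0.32 in nontreated cells (SD, n = 3 each), where it lay at the lower quartile of gene means. Il1rap differed from nontreated cells by 0.77 at 2 h and 0.69 at 4 h, and with the covariate the 4 h value was 0.57, not called. Il1b averaged 12.46 ± 0.15 with curdlan at 2 h and 12.93 ± 0.014 at 4 h, against 8.24 ± 0.54 in nontreated cells (SD, n = 3 each). Il1rn, which encodes the interleukin-1 receptor antagonist, averaged 9.67 at 2 h and 11.26 at 4 h, against 7.0 in nontreated cells. Il18, whose product caspase-1 also cleaves, was not called with curdlan (−0.11 at 2 h and 0.18 at 4 h). Between curdlan with FK506 and curdlan, 1 was called lower at 2 h and 4 at 4 h (0.762% and 1.53% of all genes). Il1rn was lower by −0.80 at 2 h (adjusted p = 5.83e-06) and −0.78 at 4 h (adjusted p = 5.63e-06). At 4 h Il18 (−0.89, adjusted p = 6.15e-06), Il1a (−0.88, adjusted p = 2.12e-04) and Il1rap (−0.63, adjusted p = 7.89e-07), were lower as well. Il18 held 5.38 to 5.66 with curdlan and FK506 and 6.33 to 6.48 with curdlan. Il1b was not called at either time (−0.12 and −0.38).

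**Figure D4:**
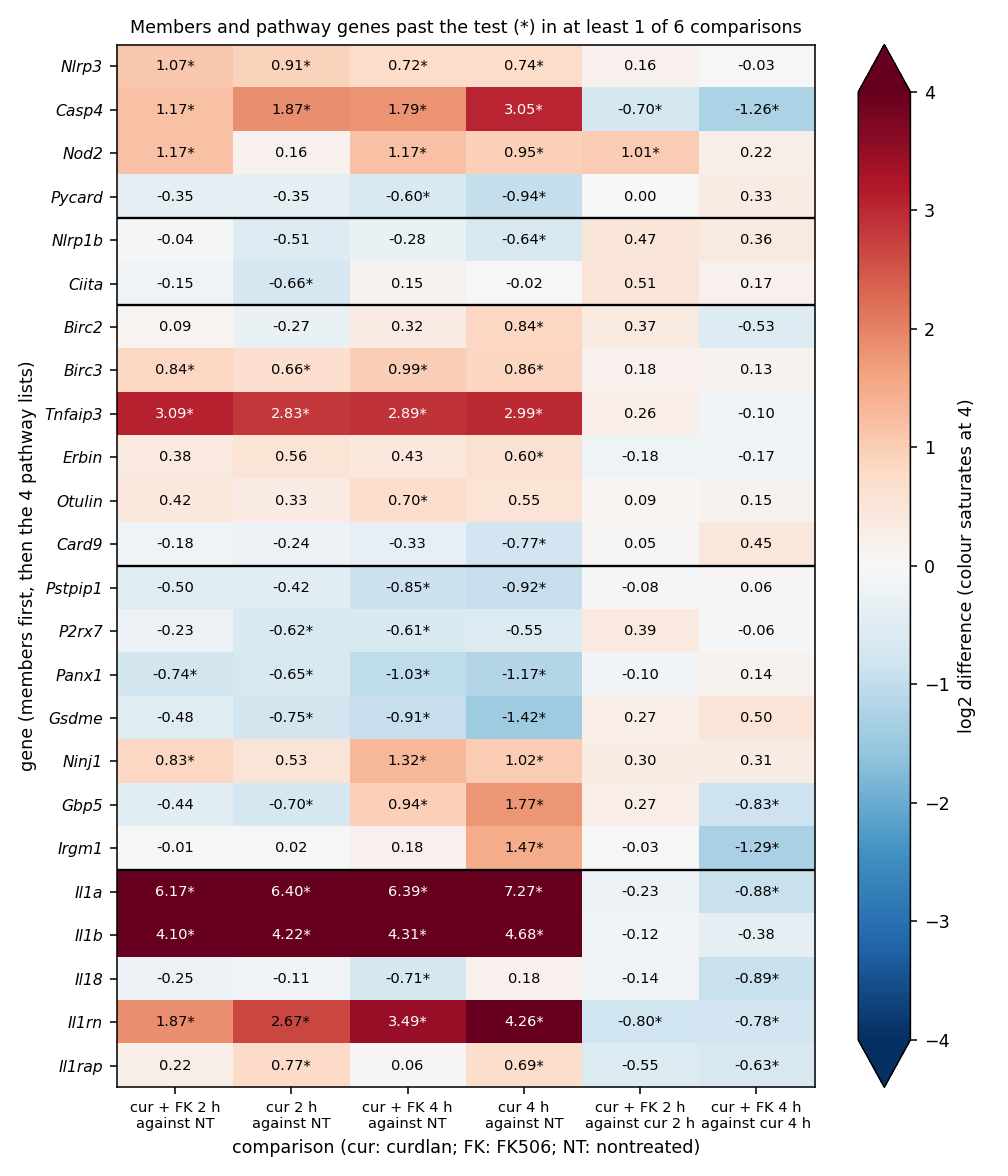
Log2 difference (colour and number, first-named group minus second) of 4 members and 20 pathway genes, down the page by list, in 6 comparisons across (cur: curdlan; FK: FK506; NT: nontreated), with an asterisk where the gene was called. Casp4, Gbp5 and Irgm1 are higher with curdlan at 4 h and lower in the column of curdlan with FK506 against curdlan at 4 h, and Tnfaip3 is near 3 in all 4 columns against nontreated cells.

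The patterns over the 15 arrays differed between the 4 called members, as a description, since arrays of a group share their treatment and genes their arrays. Casp4 and Pycard ran opposite each other (Pearson r = −0.913, n = 15 arrays), while Nod2 and Casp4 (0.484) and Nlrp3 and Casp4 (0.597) were less alike. Among 2428 candidate genes, those most like Casp4 were Pstpip2 (0.994), Cd9 (0.991) and Tspan33 (0.990). Those most like Nod2 were AA467197 (0.975), Src (0.970) and P2rx5 (0.964), and those most like Nlrp3 were Skil (0.985), Zfp36 (0.985) and Dnajb5 (0.982). For Pycard they were Lifr (0.995), Sgpp1 (0.988) and Nxpe5 (0.986).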

How the data were processed

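The authors profiled total RNA of D1 cells on Affymetrix Mouse Gene 1.0 ST arrays and deposited RMA values from affy in R 2.15.2, per the labels, which are log2 intensities after background correction, quantile normalization and summary over probes. Quantile normalization hides any shift shared by all genes. Of 34760 probe sets, 21640 carried 1 symbol in the platform annotation, 1321 several and 11799 none. Where a gene had several (954 genes), the brightest by its mean over 15 arrays stood for it, giving 19937 genes. No filter on low values was applied, so all 6 measured members were tested.

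The 5 group means were estimated in a single limma 3.58.1 fit of the 15 arrays (R 4.3.3, 10 residual degrees of freedom, empirical Bayes, two-sided, Benjamini-Hochberg over all genes within each comparison). Genes were called at an adjusted p under 0.05 and a fold change of at least 1.5, the rule in the study's methods. Differences are the first-named group minus the second. The median SE was 0.0768, and 0.109 for the difference of FK506 effects. The number of arrays limits the precision. The fit was tested on simulated data. Members and lists were chosen with earlier results of these data known. All members are named, with up to 4 called genes per list by size of change (Erbin beyond these). The comparisons used for this were curdlan with nontreated cells and curdlan with FK506 against curdlan. Nlrc4, Gsdmd, Nlrp1a, Nlrp10, Tab1 and uncalled values of named genes were singled out after their values were seen. The 3 genes most like each called member by Pearson r are named too. Markers of 8 cell types served to check the labelled one, and of those not given above, 0 of 4 mast cell markers lay above the median gene. Of the 59 list genes, Nlrp12, Naip1, Ripk1, Gbp2 and Irgb10 are not analysed here. Promoter windows came from RefSeq (GRCm38.p6, 250 bases before to 50 after the start). The alternatives were 12 other settings and each of the 15 arrays left out.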

Additional observations from a re-analysis of the deposited data

Results flagged for a closer look

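For 3 members the response to curdlan against the shared nontreated arrays differed between 4 h and 2 h by the direct limma comparison of the times. The log2 difference between 4 h and 2 h was 1.18 for Casp4 (SE 0.11, adjusted p = 2.96e-06), 0.78 for Nod2 (SE 0.047, adjusted p = 4.44e-08) and −0.59 for Pycard (SE 0.06, adjusted p = 5.56e-06). With FK506 present it was 0.63 for Casp4 (SE 0.11, adjusted p = 0.00145).

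The effect of FK506 on Nod2 differed between the times, with −0.78 for the effect at 4 h minus that at 2 h (SE 0.067, adjusted p = 2.05e-05). All 3 arrays with FK506 were above all 3 curdlan arrays at both times. Why the Nod2 level with curdlan alone was closer to the level with FK506 at 4 h than at 2 h was not tested.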

How the results depend on the processing

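Of 21 called member values, 16 were called under all 12 other settings and all 15 arrays left out, among them every called value of Nod2 and the Casp4 values against nontreated cells and against curdlan alone. With the median of the unnamed probe sets as a covariate, Nlrp3 at 4 h against nontreated cells was 0.53 with curdlan and 0.56 with curdlan and FK506, Casp4 at 4 h against 2 h with FK506 was 0.54, and none of these was called. The Casp1 difference between curdlan at 4 h and nontreated cells turned to −0.53. On every 4 h array the covariate was higher than on every nontreated array, so in those comparisons it followed the treatment. With arrays centred on their median, Pycard was −0.53 between curdlan with FK506 at 4 h and nontreated cells and −0.52 between curdlan at 4 h and 2 h, and array weights took the second to −0.56. The cause was not tested. Centring moved the median of all genes by 0.11 for curdlan at 4 h and for curdlan with FK506 at 2 h against nontreated cells, and the covariate moved it by 0.19, 0.13 and 0.15 for curdlan at 4 h and curdlan with FK506 at 4 h against nontreated cells and for curdlan at 4 h against 2 h. With no fold threshold, members called were 4 for curdlan at 2 h against nontreated cells, 3 for curdlan with FK506 against curdlan at 4 h, 3 for the times with FK506 and 2 for the difference of FK506 effects, and the covariate left 0 for the times with FK506. Leaving out 1 array gave 1 to 2 members for the difference of FK506 effects. Genes called of all 19937, with no fold threshold, were 4004 and 7432 for curdlan at 2 h and 4 h against nontreated cells (718 and 1835 with it), 1509 and 2327 for curdlan with FK506 against curdlan at 2 h and 4 h (224 and 348), 3515 and 5175 for curdlan with FK506 against nontreated cells at 2 h and 4 h (468 and 1073), 5191 for curdlan at 4 h against 2 h (816), 2788 for the times with FK506 (336) and 872 for the difference of effects (246). Fitting all 34760 probe sets, with or without a symbol, gave counts of probe sets and not of genes, more features being tested. For curdlan at 2 h and 4 h against nontreated cells 1088 and 3464 probe sets were called. For curdlan with FK506 at 2 h and 4 h against nontreated cells they were 923 and 1760, and for curdlan at 4 h against 2 h 1711. The deviations of same-numbered arrays from their group means had correlations of −0.727 to 0.584 (9 of 30 pairs over 0.1). Of 15 arrays, 8 correlated best with their own number. With 3 arrays per group this does not show that the numbers pair the samples, and it cannot exclude it. With the replicate number as a block, 2 and 4 members were called for curdlan at 2 h and 4 h against nontreated cells, 2 and 1 for curdlan with FK506 against curdlan, 3 and 4 for curdlan with FK506 against nontreated cells, 3 for curdlan at 4 h against 2 h, 1 for the times with FK506 and 1 for the difference of effects. The block changed no member call, and all genes called were 717, 1834, 222, 347, 461, 1069, 815, 335 and 234 in that order. Of 68 called list values, 53 were called under every alternative and 0 changed sign. Of 22 uncalled member values whose interval holds 0, the Casp1 value above was called without nontreated replicate 3 (0.66). For the other 21 no direction is given. Their sign changed in 53 cases over 27 alternatives each, and 0 were called.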
